A study of Mus musculus with 2 samples.

Results

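The genes of the mitochondrial ribosomal proteins were described in the liver of normal and diabetic mice. Their members were all rows of the deposited expression table whose gene symbol starts with Mrpl or Mrps followed by a digit, which gave 52 of 8551 genes, 30 named for the large subunit (Mrpl) and 22 named for the small subunit (Mrps). The choice used symbols only and no measured value, but the table leaves out genes averaging under 1 TPM. The normal library came from wild type male mice on a C57BL/6 background, and the diabetic library from male db/db mice on a C57BL/6 background, which carry a leptin receptor mutation in every tissue and become obese and diabetic. The study names more than 1 supplier of mice and does not state whether supplier and genotype coincide, so their parts were not tested. All mice were 9 weeks old, were untreated as far as the labels state, and gave their liver about 3 h into the light phase. The study describes several mice per group, but there is 1 library per group and the text does not state how RNA was combined. Thus no difference below has a replicate check, and each test compares the 2 libraries and not the conditions.

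Mitochondrial ribosomes translate the few messenger RNAs encoded by mitochondrial DNA, all of which give membrane subunits of the oxidative phosphorylation complexes. Their ribosomal RNAs come from mitochondrial DNA, while every ribosomal protein is encoded in the nucleus, made in the cytosol and imported. About as many of these proteins have a counterpart in the bacterial ribosome as are specific to mitochondria, and the liver is a tissue rich in mitochondria.

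The libraries were digital gene expression tags, in which poly(A) RNA is copied into cDNA, cut with DpnII at GATC and read for a short tag at a cut site. The deposited values are called TPM and are the tags of a gene divided by all clean tags of its library and scaled as in RPM. They rise in steps of 0.0973 TPM in the normal and 0.074 TPM in the diabetic library, 1 step being 1 read, which corresponds to 10278531 and 13508232 clean tags. All 52 members were detected in both libraries, with 20 to 1517 reads in the normal and 8 to 2481 reads in the diabetic library. Over all 8551 genes the median log2 ratio of diabetic over normal was 0.25, so a gene at that value sat in the middle of all genes. Of 7 hepatocyte markers listed, Alb stood at 6801 TPM in the normal and 6912 TPM in the diabetic library, 2 were higher and 2 lower. The summed reads of 5 macrophage markers were 0.328-fold the normal level in the diabetic library, with 0 of 5 higher and 3 lower. Most of these reads were of C1qa (1814 normal and 685 diabetic). Emr1 and Csf1r were also lower, and Cd68 and Clec4f were not called. The summed reads of 3 cholangiocyte markers were 1.75-fold, with 1 higher, Spp1, which held most of them (588 normal and 1393 diabetic). Epcam and Krt7, with log2 ratios of -0.08 and 0.14, were not called. Of the 5 endothelial and of the 5 stellate cell markers, 1 was higher and 1 lower in each list. The part of a changed cell makeup in the results below was not tested, and in whole liver fewer cells of a type and less RNA per cell cannot be told apart.

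The tags expected for the members that the comparisons turn on are shown here, since such tags are what is counted for a gene. Each is the GATC nearest the 3′ end, in capitals, with the 16 bases after it, read from the longest RefSeq-linked protein-coding transcript of the GENCODE M21 annotation of GRCm38. The list holds the upregulated members with the largest ratios, the downregulated member, and the genes compared as neighbours or paralogs.
Mrps17: GATCgtatgtattgtctcat
Mrps18b: GATCacaagttgcatgttga
Mrps18c: GATCctgcatatctcaaaga
Mrps18a: GATCtcctggccactgtggt
Mrpl33: GATCcaatagtgaacaaaaa
Mrpl46: GATCgaggtagagagaagcc
Mrps11: GATCctacagaaggcccact
Mrpl20: GATCgctattggcgggttca

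The 3 Mrps18 paralogs have different tags, so reads of these tags would not be exchanged among them. The tags of 45 members were found at no GATC site of a transcript of another annotated gene. Those of 7 members (Mrpl16, Mrpl33, Mrpl43, Mrpl53, Mrps18c, Mrps33 and Mrps6) also occurred at a GATC site, not necessarily the last, of another gene's transcript. The Mrpl33 tag is shared with AC141640.1, and the Mrps18c tag with Gm14237 and Gm15946. How the authors counted tags of more than 1 gene is not given in the sources used here, so the values of these 7 members are less certain. The labels describe cDNA made with random hexamers, so tags from other GATC sites of a transcript may also have been counted, and which tags were counted was not tested. Member transcripts held 1 to 13 GATC sites with a median of 3, and 9 members had 1 site. A gene's tags depend on its sites as well as on its RNA. Orders and ranges of genes by TPM or reads below are therefore of counted tags and not of RNA amount.

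A gene was called differentially expressed when its values differed at least 1.5-fold with a false discovery rate (FDR) under 0.001. Its p-values were two-sided, from an exact binomial test of each gene's reads, and the adjustment of Benjamini and Hochberg ran across the 8551 genes. By this rule 18 of the 52 members (34.6%) were upregulated in the diabetic library, beside 22.9% of all listed genes. Only Mrpl20 was downregulated (1.92% of members), beside 8.19% of all genes. Under TMM scaling, which uses the trimmed mean of M values and subtracts 0.25 from each log2 ratio, 13 members were upregulated and 3 downregulated, beside 14.9% and 13.4% of all genes. By fold change alone 18 members were higher and 2 lower (Mrpl20 and Mrpl45), beside 34.4% and 15.3% of all genes, so by that rule the share higher was near that of all genes. In TPM, 38 members had the higher value in the diabetic library and 14 in the normal library, while 61.8% of all genes were higher in the diabetic library. The 95% counting interval of the log2 ratio lay above 0 for 32 members, below 0 for 5 and spanned 0 for 15. Over all genes it lay above 0 for 40.2% and below 0 for 18.6%.

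The members together went from 1524 TPM in the normal to 2058 TPM in the diabetic library. This was a log2 ratio of their summed reads of 0.43 with a counting interval of 0.40 to 0.46, or 1.35-fold. Their median log2 ratio was 0.41, against 0.25 for all listed genes, which places the middle member 0.16 above the middle gene under TMM scaling. Among the reads of listed genes they took 0.411% (95% Wilson interval 0.405 to 0.418) in the normal and 0.464% (0.458 to 0.469) in the diabetic library. Listed subunits of oxidative phosphorylation, the complexes that receive the products of these ribosomes, were picked by symbol. The 45 picked had a median log2 ratio of 0.74, with 29 upregulated (64.4%) and 1 downregulated, and 38 had the higher value in the diabetic library. The choice by symbol was not complete and left out Cyc1, which had a ratio of -0.31. The 11 listed cytosolic ribosomal protein genes had a median of -0.24, with 1 upregulated and 3 downregulated. Their summed reads had a log2 ratio of 0.28 (0.25 to 0.30), beside 0.26 for all listed genes. The most counted of the 11, Rpl41, had a ratio of 0.71. In the plot of cumulative ratios, both subunits lie between all genes and the oxidative phosphorylation genes over the middle of their range.

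**Figure D1:**
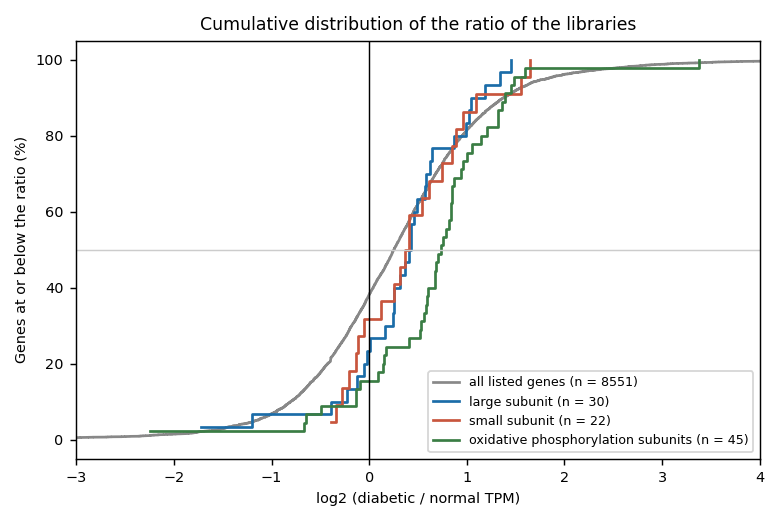
Cumulative share of genes (vertical axis, percent) at or below each log2 ratio of diabetic over normal TPM (horizontal axis), for all 8551 listed genes, the 30 large-subunit and 22 small-subunit members and 45 oxidative phosphorylation subunits. The curves cross the 50% line at 0.25 for all genes, 0.42 for the large subunit, 0.39 for the small subunit and 0.74 for oxidative phosphorylation.

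The members did not share a common ratio. Against the log2 ratio of 0.43 of their summed reads, the counting interval of 16 members lay above, that of 18 below, and that of 18 included it. This comparison does not depend on the scaling between the libraries, and the sum includes each member itself. The largest ratio was that of Mrps17 at 1.65 and the lowest that of Mrpl45 at -1.72, the latter from 20 and 8 reads. In all, 8 members were at least 2-fold higher in the diabetic library and 2 at least 2-fold lower. Once the FDR rule was added, 8 members were higher and 1 lower, beside 14.5% and 4.53% of all genes. The share higher was therefore near that of all genes. Whether the members spread more widely than all genes was not tested. The plots of levels and of ratios show the spread of the members in both subunits.

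**Figure D2:**
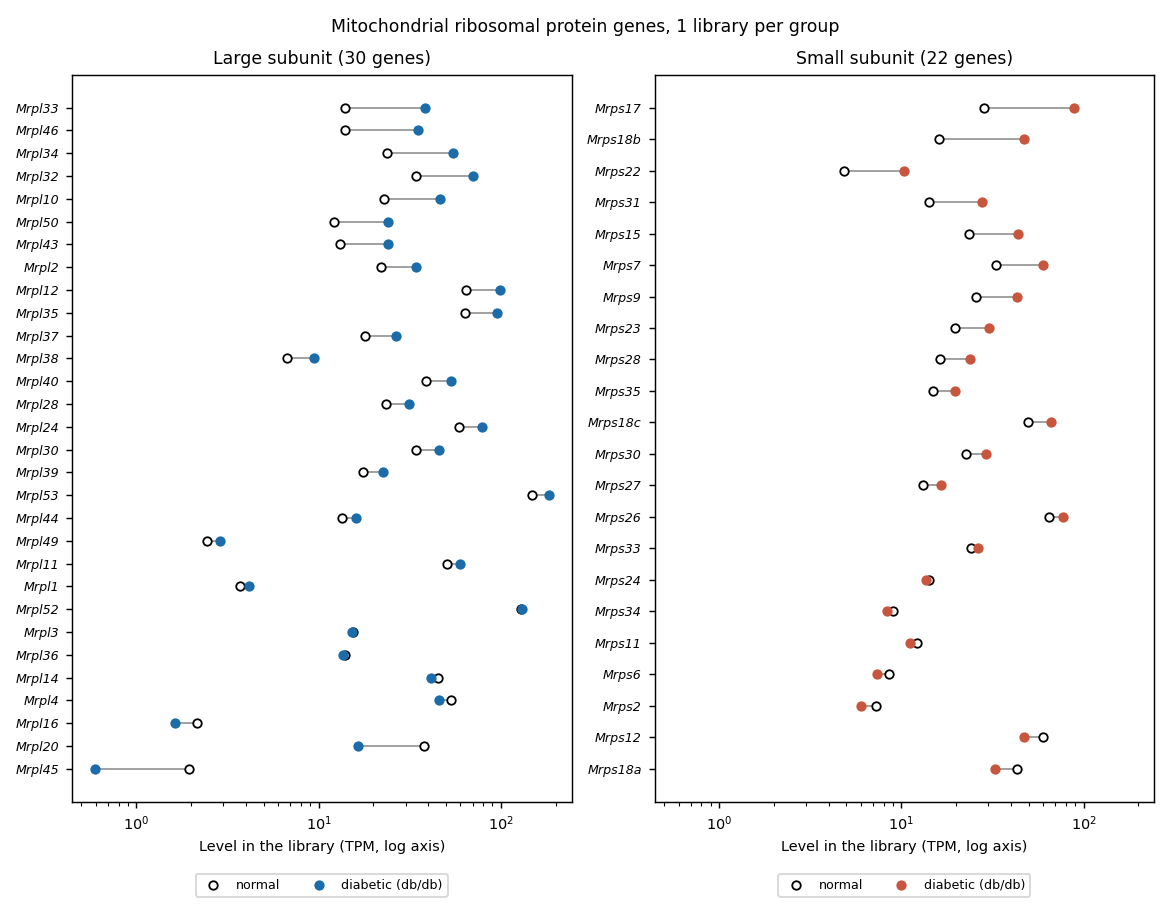
Level of each member in the normal (open points) and diabetic (filled points) library in TPM on a log axis, large subunit left and small subunit right, ordered by ratio. Each point is 1 library, and the filled point lies to the right for 38 of 52 members.

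Among the 30 large-subunit members, 10 were upregulated and 1 downregulated, and 23 had the higher value in the diabetic library. Mrpl33, a small protein with a bacterial counterpart, was at 14.01 TPM in the normal and 38.4 TPM in the diabetic library, with a log2 ratio of 1.46 (1.19 to 1.73), or 2.74-fold. Mrpl46, a mitochondria-specific protein, was at 13.9 and 35.2 TPM, a log2 ratio of 1.34 (1.07 to 1.62). Mrpl34, which has a bacterial counterpart, was at 23.8 and 54.3 TPM, a ratio of 1.19 (0.98 to 1.40). In these 3 genes the diabetic library stood more than 2-fold above the normal library.

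Mrpl32, a protein whose maturation by the m-AAA protease of the inner membrane is a step of ribosome assembly, was at 34.3 TPM in the normal and 70.3 TPM in the diabetic library, with a log2 ratio of 1.04 (0.86 to 1.22). Mrpl10 was at 22.8 and 46.3 TPM, a ratio of 1.03 (0.81 to 1.25). Mrpl12, which sits with Mrpl10 in the stalk of the large subunit, was at 64.5 and 99.6 TPM, a ratio of 0.63 (0.49 to 0.76). Both stalk proteins were thus higher in the diabetic library, Mrpl12 just past the threshold, and its call is lost under each of 4 other scalings. Mrpl50, Mrpl43 and Mrpl2, with log2 ratios of 0.99, 0.86 and 0.65, were also upregulated, but the call of Mrpl2 is lost under each of the 4 other scalings and that of Mrpl43 under the median ratio. Nearest the threshold, Mrpl35 was inside it at 63.2 and 94.9 TPM (1.5008-fold) and Mrpl37 outside it at 17.9 and 26.6 TPM (1.48-fold), although their counting intervals, 0.45 to 0.72 and 0.31 to 0.83, overlap, and the call of Mrpl35 is also lost under each of the 4.

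Mrpl53 and Mrpl52, mitochondria-specific proteins, took the most reads, 18.2% of all member reads in the normal and 15.3% in the diabetic library, and neither was called. Mrpl53 was at 147.6 and 183.7 TPM, a log2 ratio of 0.32 (0.22 to 0.41). Mrpl52 was at 129.8 and 130.96 TPM, a ratio of 0.01 (-0.09 to 0.12), which is -0.24 under TMM scaling. Relative to the middle of all genes, Mrpl52 therefore lay below it in the diabetic library and Mrpl53, at 0.06 under TMM scaling, close to it.

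**Figure D3:**
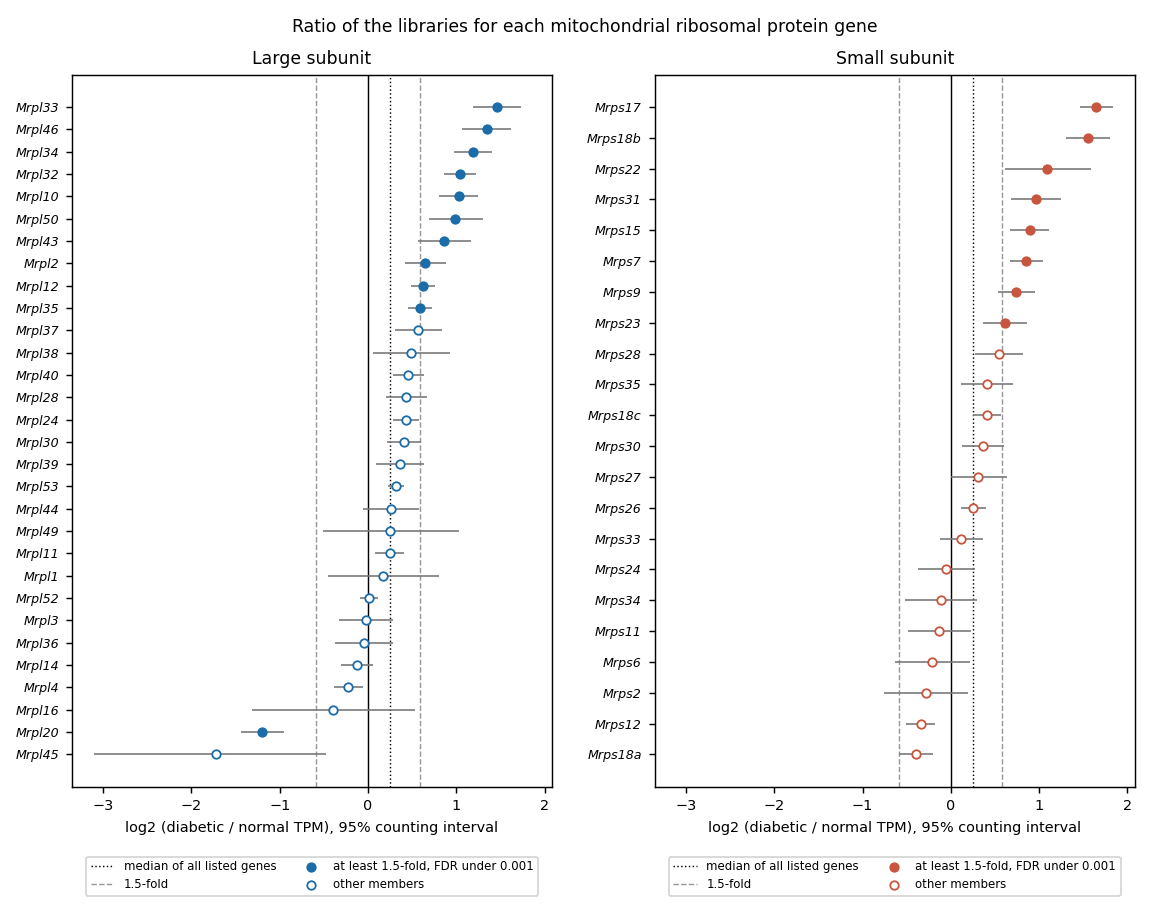
Log2 ratio of diabetic over normal TPM (horizontal axis) of each member with its 95% counting interval, large subunit left and small subunit right, with filled points for differentially expressed members. The dotted line is the median of all listed genes, 0.25, the dashed lines mark 1.5-fold, and the filled points right of it number 10 in the large and 8 in the small subunit against 1 on the left.

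Mrpl20, a protein with a bacterial counterpart, was the downregulated member, at 37.9 TPM and 389 reads in the normal and 16.5 TPM and 223 reads in the diabetic library. The ratio was -1.20 on the log2 scale (-1.44 to -0.96), or 2.29-fold lower, and it remained called under each of 4 other scalings. Mrpl45 was at 1.95 and 0.59 TPM from 20 and 8 reads, a ratio of -1.72 (-3.11 to -0.47), and with an FDR of 0.0078 in the exact binomial test it was not called. Mrpl4 was at 53.2 and 45.6 TPM, a ratio of -0.22 (-0.39 to -0.05). Mrpl45 and Mrpl4 were named after their values were seen, as the other large-subunit members whose intervals lie below 0.

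Among the 22 small-subunit members, 8 were upregulated and 0 downregulated, and 15 had the higher value in the diabetic library. By fold change alone the count lower was also 0, and the counting intervals of 2 members lay below 0. Mrps17, a protein with a bacterial counterpart that binds the ribosomal RNA, was at 28.4 TPM and 292 reads in the normal and 89.1 TPM and 1204 reads in the diabetic library. The ratio was 1.65 on the log2 scale (1.46 to 1.84), or 3.14-fold, the largest of the 52 members, with an FDR of 4.07e-82 in the exact binomial test. Mrps18b was at 16.05 and 47.1 TPM, a ratio of 1.55 (1.30 to 1.81). Mrps22, a mitochondria-specific protein in which inherited defects impair mitochondrial translation, was at 4.86 and 10.4 TPM from 50 and 140 reads, a ratio of 1.09 (0.62 to 1.59). Its interval is wide for its few reads, and the call is lost under median-ratio and upper-quartile scaling.

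The other upregulated small-subunit members were Mrps31, Mrps15, Mrps7, Mrps9 and Mrps23, with log2 ratios of 0.96, 0.89, 0.85, 0.74 and 0.61. The calls of Mrps9 and Mrps23 are lost under each of the 4 other scalings, and that of Mrps7 under the median ratio and the upper quartile. Mrps26, a mitochondria-specific protein, was not called at 64.8 and 77.3 TPM, a ratio of 0.25 (0.11 to 0.40), which equals the median of all genes and lies just below 0 under 3 of the 4 other scalings. Mrps30, which carries a small-subunit symbol but belongs to the large subunit of the assembled ribosome, was at 22.6 and 29.1 TPM, a ratio of 0.37 (0.13 to 0.61). Mrps12, the counterpart of the bacterial protein in which streptomycin resistance arises, was at 59.9 and 47.3 TPM, a ratio of -0.34 (-0.50 to -0.18), and was named after its value was seen. Under TMM scaling Mrps12 and Mrps18a joined Mrpl20 as downregulated members.

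The large and small subunits were compared next. The median log2 ratio was 0.42 for the large and 0.39 for the small subunit, a difference of 0.03. By summed reads the ratio was 0.40 (0.37 to 0.44), or 1.32-fold, for the large and 0.49 (0.44 to 0.53), or 1.40-fold, for the small subunit. The small subunit took 34.5% (33.7 to 35.2) of the member reads in the normal and 35.8% (35.2 to 36.3) in the diabetic library. Large over small, the summed reads differed by -0.08 (-0.14 to -0.02) on the log2 scale, a counting interval that leaves out the variation between mice. Without Mrps17 the share was 33.2% in the normal and 32.9% in the diabetic library. With subunits taken from the symbols, the direction of the shift therefore rested on that gene. With Mrps18a and Mrps30 counted in the large subunit, where they sit in the assembled ribosome, the shares were 30.2% and 32.8%. The upregulated share was 33.3% of large-subunit and 36.4% of small-subunit members, and under TMM scaling 7 and 6 members.

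Members with a bacterial counterpart and mitochondria-specific members were also set side by side. Among the Mrps18 paralogs, only Mrps18c was classed as having a counterpart, while Mrps18a and Mrps18b were counted as mitochondria-specific. Of the 29 with a counterpart, 11 were upregulated and 1 downregulated, with a median log2 ratio of 0.41. Of the 23 mitochondria-specific members, 7 were upregulated and 0 downregulated, with a median of 0.37, while 1 was at least 1.5-fold lower and 2 had an interval below 0. By summed reads the log2 ratio was 0.48 (0.44 to 0.52) for members with a counterpart and 0.37 (0.32 to 0.41) for mitochondria-specific members. These counting intervals do not overlap, but they leave out the variation between mice. Mrpl52 and Mrpl53 held 2851 of the 6804 mitochondria-specific reads in the normal and 4250 of 11539 in the diabetic library. In the assembled large subunit the classes stood at 0.44 (0.40 to 0.49) and 0.30 (0.25 to 0.35). In the assembled small subunit they stood at 0.56 (0.49 to 0.62) and 0.54 (0.46 to 0.62), so the classes differed little there.

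The upregulated members were found mainly among genes of middle counts. Of the 22 members with a mean of 20 to 50 TPM, 11 were upregulated and 1 downregulated with a median log2 ratio of 0.59, while 33.7% of all genes in that range were upregulated with a median of 0.29. Of the 11 members at 50 TPM or more, 4 were upregulated with a median of 0.41, beside 40.2% and 0.37 for all genes there. At 10 to 20 TPM, 2 of 10 were upregulated with a median of 0.28, beside 30.5% and 0.26 for all genes there. Of the 9 members under 10 TPM, 1 (Mrps22) was upregulated with a median of -0.11, beside 14.0% and 0.20 for all genes there, and all 9 had under 100 reads in a library.

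**Figure D4:**
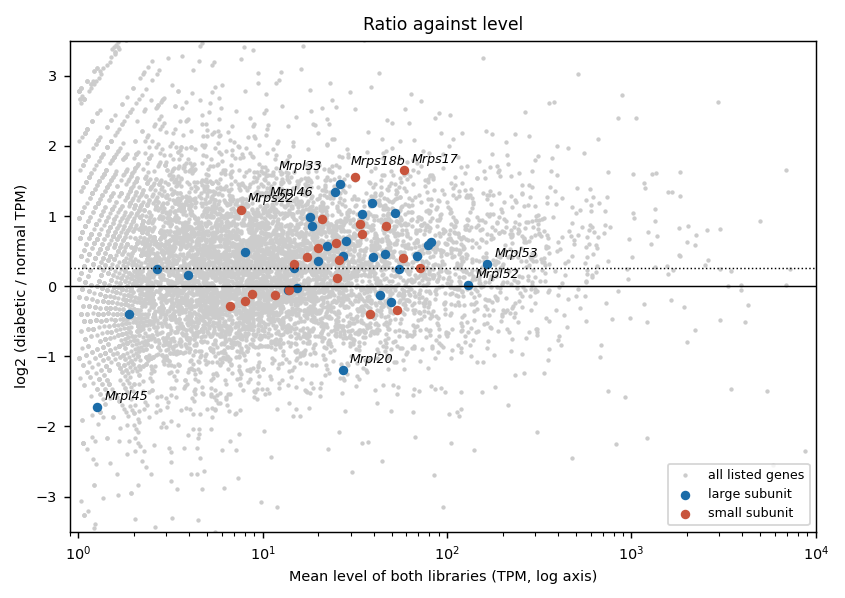
Log2 ratio of diabetic over normal TPM (vertical axis) against the mean TPM of both libraries (log axis), with large-subunit members in blue, small-subunit members in red and all listed genes in grey, genes past 3.5 on the log2 scale being outside the drawn range. The dotted line is the median of all genes, 0.25, and Mrps17, Mrps18b, Mrpl33 and Mrpl46 lie highest among the members while Mrpl20 and Mrpl45 lie lowest.

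The members include 3 paralogs, Mrps18a, Mrps18b and Mrps18c, all related to a single protein of the bacterial small subunit. In the classes above only Mrps18c was counted as its counterpart. Mrps18b and Mrps18c belong to the small subunit and Mrps18a to the large subunit of the assembled ribosome. Mrps18a was at 43.2 TPM in the normal and 32.9 TPM in the diabetic library, with 444 reads in each and a log2 ratio of -0.39 (-0.59 to -0.20). Mrps18c was at 49.8 and 66.1 TPM, a ratio of 0.41 (0.25 to 0.57). Mrps18b, at 1.55, stood apart from both. The ratio of Mrps18b exceeded that of Mrps18a by 1.95 (1.64 to 2.26) and that of Mrps18c by 1.14 (0.85 to 1.44) on the log2 scale. Mrps18c exceeded Mrps18a by 0.80 (0.56 to 1.05). In two-sided Fisher exact tests of the reads, adjusted over 4 pairs, p was 1.86e-36, 7.62e-15 and 1.57e-10 respectively. These differences within a library pair are free of the scaling.

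Mrpl46 and Mrps11 lie head to head on chromosome 7, with the starts of the GENCODE genes 412 bases apart. The RefSeq promoter windows place the 2 starts closer together. Mrpl46 rose from 143 to 476 reads, while Mrps11, a small-subunit protein with a bacterial counterpart, had 125 and 150 reads, or 12.2 and 11.1 TPM, a log2 ratio of -0.13 (-0.48 to 0.22). The ratio of Mrpl46 exceeded that of Mrps11 by 1.47 (1.04 to 1.91) on the log2 scale. The pair was picked with its values known and is given as a description.

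Altogether 21 members had a protein-coding gene on the opposite strand with its GENCODE start within 1000 bases, genes that overlap included. Of these neighbours 13 were listed, Mrpl46 and Mrps11 being neighbours of each other. Of the 11 listed neighbours that are not members, 3 were upregulated and 0 downregulated, beside 22.9% and 8.19% of all genes. Their median log2 ratio was 0.59 beside 0.57 for their members, and the direction was the same in 5 of 11 pairs. Psma2, a proteasome subunit gene beside Mrpl32, was upregulated with a ratio of 0.59, as was Klc4 beside Mrpl2. Ptcd2 beside Mrps27 was upregulated at 7.39 and 15.84 TPM, while Mrps27 itself, with a ratio of 0.31, was not called.

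Promoters were examined because upregulated members came from a list of genes spread over 15 chromosomes. RefSeq gave a window of 250 bases before to 50 bases after the start on GRCm38.p6 for 47 members. It was searched on both strands for the letters CCGGAAG (ETS factors such as GABP), GCATGCGC (NRF1) and AAGATGGC (YY1), letters tied to nuclear genes of mitochondria. CCGGAAG was present in 15 members (31.9%), beside 20.9% of the 6623 listed genes with a window and 9.93% of 27025 genes in all. AAGATGGC was present in 11 members (23.4%), beside 5.6% and 3.19%. GCATGCGC was present in 5 members (10.6%), beside 5.9% and 3.05%. The general promoter letters TATAAA and CCAAT were present in 4 (8.51%) and 20 (42.6%) members, beside 9.23% and 42.4% of listed genes. At least 1 of the letters of ETS factors, NRF1 and YY1 was found in 25 members (53.2%), beside 29.3% of listed genes.

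The promoters of the 5 members with GCATGCGC are shown from RefSeq on GRCm38.p6, from 250 bases before the start up to the start, since these genes included 4 upregulated members. Capitals mark the letters of NRF1 and YY1 in either orientation, and a palindrome of overlapping copies appears as a longer run.
Mrpl10, chr11:97041332-97041581, plus strand: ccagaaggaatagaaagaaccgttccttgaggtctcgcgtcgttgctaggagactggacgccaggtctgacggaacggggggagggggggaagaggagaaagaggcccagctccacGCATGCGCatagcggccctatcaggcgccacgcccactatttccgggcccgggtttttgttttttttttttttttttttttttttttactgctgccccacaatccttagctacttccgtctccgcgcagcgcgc
Mrpl32, chr13:14613038-14613287, minus strand: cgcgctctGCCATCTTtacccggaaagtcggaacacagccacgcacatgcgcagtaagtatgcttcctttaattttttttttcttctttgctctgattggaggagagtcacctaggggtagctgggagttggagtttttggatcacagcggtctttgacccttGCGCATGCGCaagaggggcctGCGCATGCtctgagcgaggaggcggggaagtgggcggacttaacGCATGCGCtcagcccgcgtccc
Mrpl33, chr5:31613701-31613950, plus strand: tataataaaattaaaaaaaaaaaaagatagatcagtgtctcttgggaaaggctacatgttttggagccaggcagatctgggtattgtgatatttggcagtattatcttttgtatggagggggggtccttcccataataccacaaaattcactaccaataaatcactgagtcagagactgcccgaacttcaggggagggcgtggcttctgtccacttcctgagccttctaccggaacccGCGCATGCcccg
Mrpl39, chr16:84735245-84735494, minus strand: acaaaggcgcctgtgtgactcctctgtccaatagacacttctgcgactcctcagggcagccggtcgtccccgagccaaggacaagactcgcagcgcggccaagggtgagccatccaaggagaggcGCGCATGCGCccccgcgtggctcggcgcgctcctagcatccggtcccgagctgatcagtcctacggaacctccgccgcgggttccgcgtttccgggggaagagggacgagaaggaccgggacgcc
Mrps18b, chr17:35916441-35916690, minus strand: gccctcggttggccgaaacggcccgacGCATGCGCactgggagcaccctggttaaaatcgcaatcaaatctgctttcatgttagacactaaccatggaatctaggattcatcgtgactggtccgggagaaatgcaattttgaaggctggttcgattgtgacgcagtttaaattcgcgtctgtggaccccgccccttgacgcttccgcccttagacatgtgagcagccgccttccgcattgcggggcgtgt

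Mrpl32 held 4 overlapping or separate copies of GCATGCGC before its start and the other genes 1 or 2. Mrpl10, Mrpl32, Mrpl33 and Mrps18b were upregulated, and Mrpl39, at 17.5 and 22.5 TPM with a log2 ratio of 0.36 (0.09 to 0.64), was not called. The median of the 5 was 1.04, beside 0.34 for the 42 members without these letters, 14 of which were upregulated. Over the 391 listed genes with the letters, 23.8% were upregulated with a median of 0.32, beside 23.0% of the 6232 listed genes without them. Of members with CCGGAAG 6 of 15 were upregulated, beside 22.8% of listed genes with these letters, and their median was 0.32, beside 0.42 for members without them. Of members with AAGATGGC 3 of 11 were upregulated, beside 23.5% of listed genes with these letters, and their median was 0.25, beside 0.42 for members without them. The medians thus lay lower with either of these letters and higher with GCATGCGC. The genes were grouped by these letters with their values known, so no test was made, and a match is a description and not a site.

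Other genes of mitochondrial translation were taken from lists by function. Of 35 listed genes, 13 were upregulated and 0 downregulated, beside 22.9% and 8.19% of all genes, with a median log2 ratio of 0.49. By fold change alone 14 were higher and 1 lower (Rnmtl1), and the intervals of 3 lay below 0. Under each of 4 other scalings 7 were upregulated, beside 13.3% to 14.9% of all genes. Under TMM scaling the calls of Ptcd3, Aurkaip1, Ftsj2, Mpv17l2, Mtif2 and Gfm2 were lost. Ribosome proteins with other symbols gave 2 of 5, Ptcd3 at 30.8 and 50.9 TPM (0.72 on the log2 scale) and Aurkaip1 at 64.2 and 101.4 TPM (0.66), neither of them called under TMM scaling. Dap3, a small-subunit GTP-binding protein, was at 2.24 and 3.04 TPM and was not called.

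Assembly and ribosomal RNA modification factors gave 5 of 15. Mtg1, a GTPase of large-subunit assembly, was at 3.79 and 15.25 TPM, a log2 ratio of 2.01. Wbscr16 had a ratio of 1.23, Mterfd1 1.01, Ftsj2, a methyltransferase of the large ribosomal RNA, 0.96, and Mpv17l2 0.79. Of these 5, Mtg1 differed the most. The intervals of 2 of the 15 lay below 0, neither called, those of Ngrn and Rnmtl1. Ngrn, the most counted, was at 121.03 and 100.61 TPM, a ratio of -0.27, and Rnmtl1 had a ratio of -1.04. By summed reads the log2 ratio of the 15 was 0.17 (0.10 to 0.25), beside 0.26 for all listed genes.

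Translation factors gave 5 of 13. Gfm1, the elongation factor that moves the ribosome along the message, was at 8.85 and 35.6 TPM, a log2 ratio of 2.01, and Gfm2, which splits the ribosome after termination, at 3.11 and 7.18 TPM, a ratio of 1.21. Mtif2, the initiation factor, had a ratio of 1.28, Mto1, which modifies mitochondrial transfer RNAs, 0.99, and Guf1 2.21 from 15 and 91 reads. The initiation factor Mtif3, the elongation factor Tsfm and the release factors Mtrf1 and Mtrf1l were not called, with ratios of 0.15, 0.34, -0.17 and -0.49. Of genes for transcription of mitochondrial DNA, Tfam, the packaging and transcription factor, was upregulated at 1.75 and 7.7 TPM (18 and 104 reads), a ratio of 2.14, and the polymerase Polrmt was not called at 12.8 and 13.9 TPM.

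**Figure D5:**
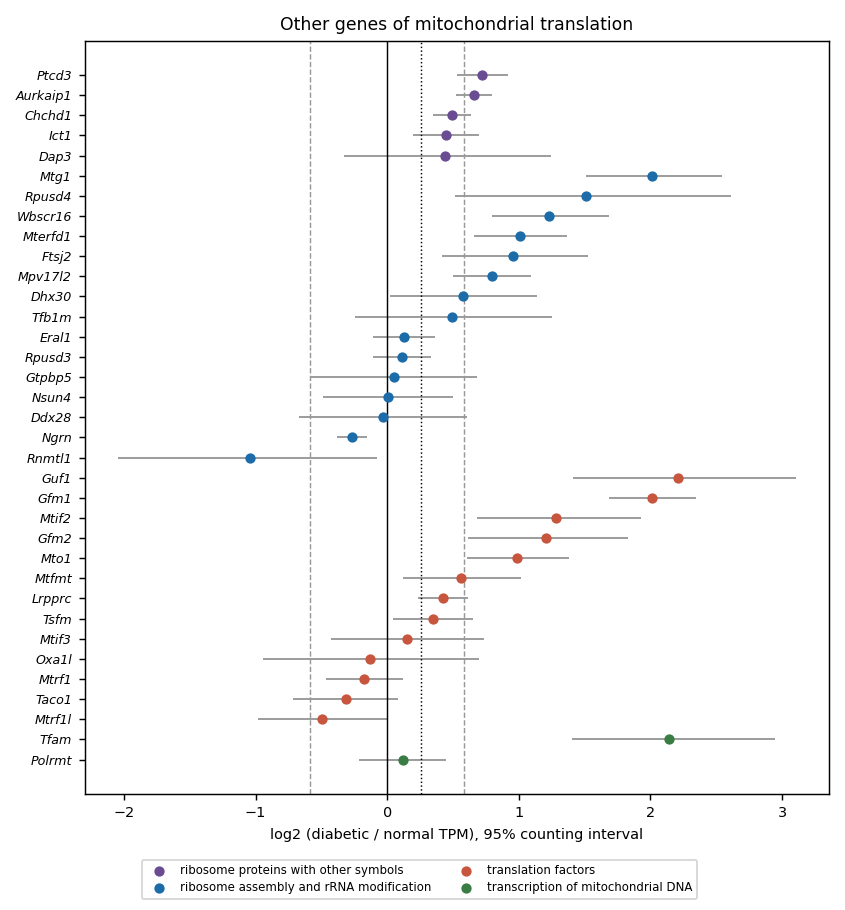
Log2 ratio of diabetic over normal TPM (horizontal axis) with 95% counting intervals for 35 other genes of mitochondrial translation, coloured by function. The solid line is 0, the dotted line the median of all genes, 0.25, and the dashed lines mark 1.5-fold, and Guf1, Tfam, Mtg1 and Gfm1 lie near 2 while Rnmtl1 is the only point left of the lower dashed line.

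RefSeq holds 78 protein-coding mouse genes with such symbols, 49 Mrpl and 29 Mrps. Besides the 52 members, 2 were listed under other symbols. D10Ertd322e (Mrpl42) was at 33.3 and 43.97 TPM, a log2 ratio of 0.40 (0.21 to 0.60), and Ict1 (Mrpl58), a ribosome rescue factor built into the large subunit, at 20.3 and 27.7 TPM, a ratio of 0.45 (0.20 to 0.70). Both lay near the median of the members and neither was called. The other 24 genes, 17 Mrpl and 7 Mrps, were not analysed here. The expected tag of 14 of them was found in no other gene, that of 6 was shared, and Mrpl41, Mrpl54, Mrpl55 and Mrps36 held no GATC site in the transcript examined.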

How the data were processed

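RNA of 1 normal and 1 diabetic (db/db) liver library was measured by DpnII digital gene expression tags. The authors kept clean tags, matched them to RefSeq and counted tags per gene, and the submitters' processing notes name the build mm9. The aligner and the treatment of shared tags are not given in the sources used here. The deposited values, called TPM, are RPM values, that is tags of a gene scaled to all clean tags, with 0.01 in place of 0 and genes under a mean of 1 TPM left out. The number of value columns not used was 0.

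Reads were recovered from the steps of these values. Within 0.0055 TPM, 8513 of 8513 values of the normal and 8536 of 8537 of the diabetic library were whole reads, and listed genes held 3809707 and 5993204 reads. Each gene was tested with a two-sided exact binomial test of its reads given the clean tags, with Benjamini-Hochberg adjustment. Ratios carry 95% Clopper-Pearson and shares Wilson intervals, and because the reads carry no molecular identifiers and may be copies, these intervals cover counting error only. The members and lists were chosen with earlier results of these data known. The members named by rule are up to 8 called members of largest fold change per direction, the 3 with the highest mean TPM per subunit, the Mrps18 paralogs, Mrps30 and Mrps36, the members nearest 1.5-fold and called genes of the function lists. Other genes named, such as Mrps11, Mrps27, Mrpl39, the remaining upregulated members and the neighbours, were chosen after their values were seen. Sequences, tags and neighbours came from RefSeq tables and GENCODE on GRCm38, a different build from that of the authors, and no coordinates were converted.

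Alternatives were 4 scalings (sum of listed genes, TMM with 30% of log ratios and 5% of abundances trimmed, median ratio over genes averaging 10 TPM or more, upper quartile), a minimum mean of 5 TPM, pseudocounts of 0.1 and 1 TPM, a fold threshold of 2, fold change alone, a variation between samples assumed to be 20%, and the test of Audic and Claverie. On simulated reads of 8551 genes with 200 changed 3-fold, 156 were called, among them 89 of 89 averaging 10 TPM or more, and 0 of 8351 unchanged genes. The simulated reads held counting error only and no variation between mice. The count of unchanged genes called therefore does not measure false calls from such variation. With the assumed variation 0 of the 200 were called. Tests used scipy 1.17.1 and numpy 2.4.6 in Python 3.11.15, tables pandas 2.3.3, and plots matplotlib 3.10.9.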

Additional observations from a re-analysis of the deposited data

How the results depend on the processing

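The scaling between the libraries lowered the counts by its construction, since each alternative lowers every log2 ratio by 0.25 to 0.31. Against 18 upregulated members, 13 were called after scaling by the sum of listed genes or TMM, 10 by the median ratio and 11 by the upper quartile, all of them among the 18. With a fold threshold of 2, 8 were called, beside 14.5% of all genes, a share near that of the members. Of all genes, 14.6%, 14.9%, 13.3% and 14.3% were upregulated under the sum, TMM, median ratio and upper quartile. Under each scaling 3 members were downregulated instead of 1, beside 13.6%, 13.4%, 14.8% and 13.8% of all genes in that order. By fold change alone 2 members were lower, beside 15.3% of all genes. An assumed variation between samples of 20% called 0 members higher and 0 lower, beside 2.82% and 0.9% of all genes. In the simulation that setting missed all 3-fold changes. Of the 35 partner genes, 7 instead of 13 were upregulated under each scaling, beside 13.3% to 14.9% of all genes.

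In the order sum, TMM, median ratio and upper quartile, the median log2 ratio was 0.15, 0.16, 0.10 and 0.14 for all members, 0.16, 0.17, 0.11 and 0.15 for the large subunit, and 0.13, 0.13, 0.0815 and 0.12 for the small subunit. Mrpl52 turned to -0.25, -0.24, -0.29 and -0.26. Mrps26 turned to -0.0052, -0.0515 and -0.014 under the sum, median ratio and upper quartile. Of the 18 members named by rule, 12 kept their direction and side of the thresholds under all 4 scalings. The small-subunit share was 30.2% and 32.8% in the normal and diabetic library by the assembled ribosome, 33.2% and 32.9% without Mrps17 (chosen after seeing the data), and 35.1% and 36.7% without Mrpl53 and Mrps26. Audic-Claverie, the minimum of 5 TPM and the pseudocounts moved no call or median past its limit. No paired analysis was possible because each group has 1 library, and leaving out a replicate was likewise not possible. Depth left wide counting intervals for the 9 members with under 100 reads in a library.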
